A study of Homo sapiens with 16 samples.

Results

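SK-N-AS cells with many transcripts of 7 genes induced by the MAPK pathway were compared with cells of the same line in which no transcript of these genes was counted. The cells were chosen by measured values. Among the 603 cells of the series, the 431 with a total of 1500 counts or more were used, and the counts of DUSP4, DUSP6, SPRY2, SPRY4, ETV4, ETV5 and PHLDA1 were added in each cell. A cell whose sum reached 0.15% of its total was placed in the high-output group, which held 50 cells. A cell whose sum was 0 was placed in the no-output group, which held 76 cells. The 126 cells of both groups are therefore compared as extremes of a range, and 305 cells lay between them. All other genes were then set side by side between the groups, and the 7 genes themselves were only described.

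SK-N-AS is an established human neuroblastoma cell line. The cells were grown in RPMI1640 medium with fetal calf serum, received no treatment, and were detached with versene and sorted singly into 384-well plates for MARS-seq, which tags the 3' ends of polyadenylated RNA with a barcode per well. The labels list 16 samples, but the columns of the deposited count table carry only barcodes, so the cells form a single pooled sample without replicates. No test was therefore made. Every interval below covers counting error only, and variation between cells, wells, plates or cultures is not in it.

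In the MAPK pathway, receptor tyrosine kinases act through RAS, RAF and MEK on the kinase ERK, which enters the nucleus and phosphorylates transcription factors. Among the genes that ERK then induces are its own brakes. DUSP6 is a cytoplasmic and DUSP4 a nuclear phosphatase that removes phosphate from MAP kinases, and the Sprouty proteins SPRY2 and SPRY4 act between the receptor and RAF. ETV4 and ETV5 are ETS transcription factors downstream of ERK, and PHLDA1 encodes a protein with a pleckstrin homology domain that is commonly read as part of the same output. RNA of such genes is used as an indirect reading of pathway activity, since ERK phosphorylation itself is not visible in RNA. In neuroblastoma, RAS-MAPK signalling is linked to ALK, NF1 and RAS lesions and to the mesenchymal cell state.

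Promoters of 3 of the 7 genes could be matched to a single entry of the RefSeq promoter table (GRCh38.p14), and they are printed because these genes chose the cells. The promoter of SERPINB2, the gene outside the 7 with the highest lower end of the interval of its ratio among genes with at least 50 counts, is printed beside them. Each sequence is the 250 bases before the start of transcription, 5' to 3' on the gene's own strand. Capitals mark the ETS core GGAA on either strand (TTCC on the other) and, in SERPINB2, the AP-1 motif TGANTCA. PHLDA1 lies at chr12:76031777-76032026 on the minus strand, DUSP6 at chr12:89352502-89352751 on the minus strand, SPRY4 at chr5:142324248-142324497 on the minus strand, and SERPINB2 at chr18:63887455-63887704 on the plus strand.
PHLDA1: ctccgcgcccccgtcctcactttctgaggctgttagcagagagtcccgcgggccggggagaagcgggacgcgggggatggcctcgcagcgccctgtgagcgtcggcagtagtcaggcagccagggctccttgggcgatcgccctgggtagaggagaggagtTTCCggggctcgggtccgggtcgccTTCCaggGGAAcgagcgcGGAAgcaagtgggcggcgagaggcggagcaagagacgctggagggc
DUSP6: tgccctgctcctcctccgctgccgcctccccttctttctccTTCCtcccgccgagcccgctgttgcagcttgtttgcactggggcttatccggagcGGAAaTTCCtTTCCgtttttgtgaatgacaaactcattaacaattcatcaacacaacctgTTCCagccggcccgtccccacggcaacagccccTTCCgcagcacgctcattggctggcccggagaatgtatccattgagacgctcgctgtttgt
SPRY4: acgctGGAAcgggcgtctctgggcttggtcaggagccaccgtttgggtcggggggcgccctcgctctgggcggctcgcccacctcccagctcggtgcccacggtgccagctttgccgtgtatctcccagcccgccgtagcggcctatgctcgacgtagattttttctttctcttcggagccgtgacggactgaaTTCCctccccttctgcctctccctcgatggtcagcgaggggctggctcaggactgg
SERPINB2: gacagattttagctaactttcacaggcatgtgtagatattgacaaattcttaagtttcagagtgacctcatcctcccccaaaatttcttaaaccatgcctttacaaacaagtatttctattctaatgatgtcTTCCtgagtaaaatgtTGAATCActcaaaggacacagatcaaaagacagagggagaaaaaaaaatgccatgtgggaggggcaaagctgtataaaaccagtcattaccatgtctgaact

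The GGAA core occurred 4 times in the PHLDA1 sequence, 6 times in DUSP6, 2 times in SPRY4 and 1 time in SERPINB2. These 4 letters are common, and 92.7% of the 35116 promoters of the same length held at least 1 match. The AP-1 motif was found in SERPINB2, where TGAATCA begins 102 bases before the start, and in none of the 3 promoters of the 7 genes, against 6.57% of all promoters. The motif reads as a match on both strands, and it does not overlap the ETS core. Of the 20 genes named below as higher in the high-output cells, 9 could be matched; 8 of them held the ETS core and 2 (SERPINB2 and HSPA5) the AP-1 motif. Of the 15 genes named as lower, 7 could be matched; 7 held the ETS core and 0 the AP-1 motif. A match describes letters in this window and is not a measured binding site.

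The 2 groups had like median totals, and the upper part of the high-output group was deeper. The 50 high-output cells held 136527 counts, with totals from 1512 to 6603, a median of 2269 and an upper quartile of 3271. The 76 no-output cells held 181331 counts, with totals from 1502 to 4844, a median of 2265.5 and an upper quartile of 2629. The cells between were deeper, with a median of 2713, a maximum of 42404 and 1007067 counts in all. After thinning to 1500 counts per cell, the median number of genes detected was 931.5 in high-output and 910.5 in no-output cells. Ribosomal protein genes made up 16.1% of the counts of the high-output cells and 17.6% of those of the no-output cells. The table reuses 239 of its 364 barcodes in a second run of columns, so the columns fall into barcode set 1 and barcode set 2. The labels do not say what these sets stand for. Set 1 held 31 of the 50 high-output and 44 of the 76 no-output cells. Within the high-output group 2 barcodes were each carried by a pair of cells, within the no-output group 3 were, and 3 barcodes occurred in both groups.

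**Figure D1:**
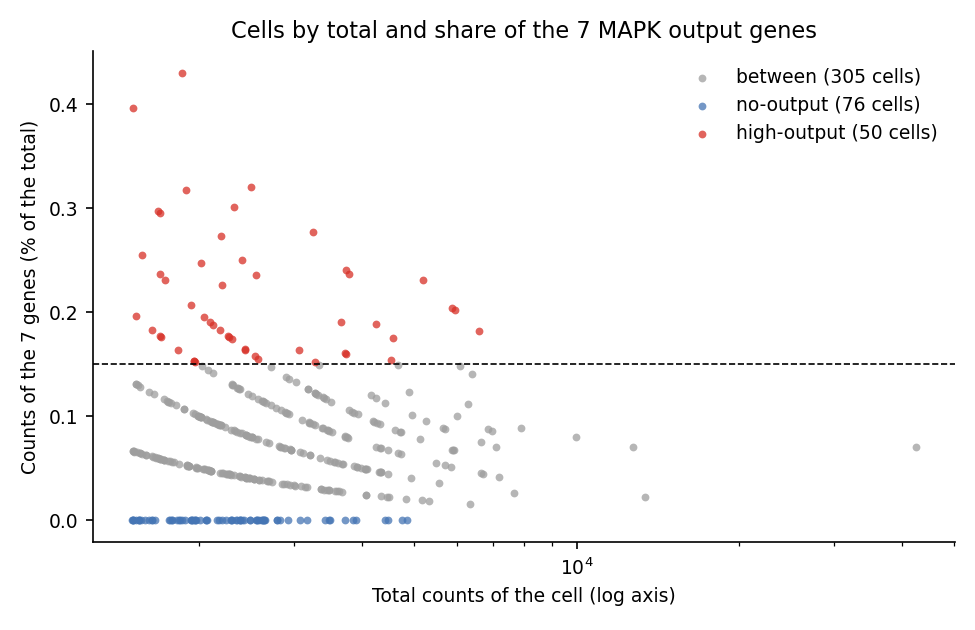
Share of each cell's counts that fell on the 7 genes (vertical axis, percent) against its total count (horizontal axis, log scale) for the 431 cells used; 1 point is 1 cell and the dashed line marks 0.15%. The 50 high-output cells reach from the line to 0.430%, and the curved bands below it are cells with 1, 2, 3 or more counts.

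The sum over the 7 genes rested on few molecules or reads per cell. High-output cells had 3 to 12 such counts, with a median of 5, and a share of 0.152% to 0.430% (median 0.191%). The 3 cells just inside the limit had shares of 0.15236%, 0.15253% and 0.15337%, and the 3 just outside had 0.14966%, 0.14961% and 0.14815%. Of the cells between, 108 had a single count of the 7 genes, so 1 count separated them from the no-output group. The classes are ranges of a sparse score and not cell types. In the no-output cells the count was 0 of 181331 by construction, which sets no limit on the level of these genes. Levels below are CPM, counts scaled to a total of 1000000.

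PHLDA1 carried nearly as many of the counts that defined the high-output cells as the other genes together. It had 133 of the 284 counts (46.8%), a summed level of 974 CPM (95% interval 816 to 1154) and at least 1 count in 46 of 50 cells. ETV4 followed with 50 counts in 30 cells (366 CPM, 272 to 483), and DUSP4 with 44 counts in 26 cells (322 CPM, 234 to 433). The Sprouty genes were unequal, with 27 counts of SPRY2 in 20 cells (198 CPM) and 13 of SPRY4 in 8 cells (95.2 CPM). DUSP6 had 16 counts in 11 cells (117 CPM), and ETV5 had 1 count in 1 cell (7.32 CPM). In the cells between, the same order began with PHLDA1 (284 CPM) and ETV4 (187 CPM), and ETV5 was again lowest (7.94 CPM).

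The high-output cells differed in which of the 7 genes they carried. Of the 50 cells, 3 had counts of 1 of the genes, 17 of 2, 21 of 3, 3 of 4 and 6 of 5. PHLDA1 gave at least 50% of the sum in 28 cells, and 13 cells would still have reached the limit without it. The highest PHLDA1 count in a high-output cell was 7, the highest DUSP4 count 6, and the highest counts of ETV4 and SPRY4 were 4.

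Whether the 7 genes vary together was read by leaving out each gene in turn, rebuilding the groups from the other 6 and reading the left-out gene. SPRY2 then had 16 counts in the 42 cells that were high for the other 6 genes and 9 in the 85 cells at 0 for them, 140 against 45.0 CPM, a log2 ratio of 1.64 (0.38 to 3.00). DUSP4 had 16 counts in 37 cells and 15 in 89 cells, 172 against 70.0 CPM, a log2 ratio of 1.30 (0.19 to 2.42). Both were also higher within each barcode set, at 1.52 and 1.82 for SPRY2 and 1.68 and 0.77 for DUSP4. For the phosphatase gene of the cytoplasm and the most abundant gene the intervals included 0, with DUSP6 at 1.11 (-0.43 to 2.74) and PHLDA1 at 0.65 (-0.15 to 1.37; 13 against 150 cells).

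No difference beyond counting error was seen for ETV4. Its 15 counts in 31 cells and 53 counts in 117 cells gave 179 and 185 CPM, a log2 ratio of -0.05 (-0.98 to 0.80), and 35.5% and 35.0% of the cells had a count. SPRY4 stood at 0.21 (-1.42 to 1.75) from 7 and 10 counts, and ETV5 had 0 and 4 counts. Of the 7 genes, SPRY2 and DUSP4 thus had an interval above 0 in cells that their own counts had not chosen. The kinase activity itself was not measured, and the groups are named by their rule.

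**Figure D2:**
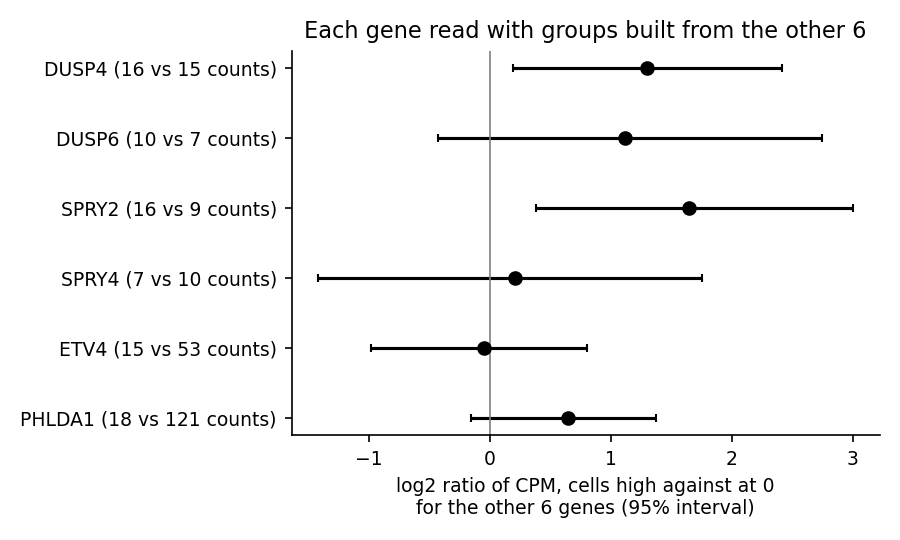
Log2 ratio of CPM (horizontal axis) of each left-out gene between cells high for the other 6 genes and cells at 0 for them; points are estimates, bars are exact 95% intervals for counting error, and the counts in each group stand beside the name (ETV5, with 0 and 4 counts, is not drawn). The bars of SPRY2 and DUSP4 lie above 0, and that of ETV4 is centred near 0.

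The rest of the transcriptome was compared over the 1155 genes outside the 7 with at least 50 counts in the 2 groups together. A ratio of 1.5 or more was used as a descriptive limit. It was reached by 74 genes (6.41%) that were higher in the high-output cells and by 69 genes (5.97%) that were lower, 143 (12.4%) in all. The median log2 ratio of the 1155 genes was -0.03. With the median of ratios as the scale in place of the total, 92 genes were higher and 57 lower. Genes near 50 counts can pass this limit through counting error, and these shares are the background for each list below.

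Of the 20 genes named as higher, those with the highest lower end of the interval and the same sign in both barcode sets, 20 reached the limit. Without the cell with the most counts of the gene, 17 still did. Of the 15 genes named as lower, 12 reached the limit with all cells, and 12 without that cell. These genes are the extremes of 1155 ratios, and their intervals do not allow for that choice.

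**Figure D3:**
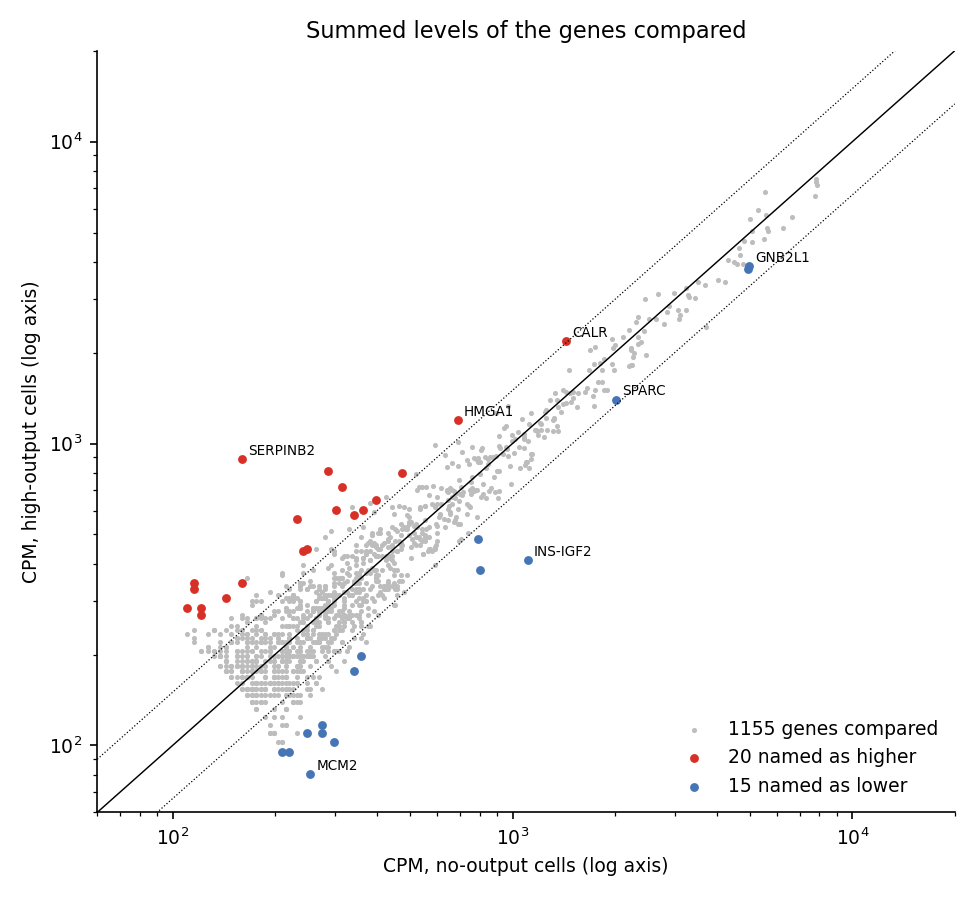
Summed level of the 1155 genes in high-output cells (vertical axis, CPM, log scale) against no-output cells (horizontal axis, CPM, log scale); the solid line is equality and the dotted lines are 1.5-fold. SERPINB2 lies farthest above the line at 886 against 160 CPM, and MCM2 farthest below it at 80.6 against 254 CPM among the named genes.

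Other genes of ERK feedback and known ERK targets, a list of 45 matched genes without the 7, were higher in sum in the high-output cells, at 5178 against 3149 CPM, a log2 ratio of 0.72 (0.56 to 0.88). The cells between stood at 4188 CPM. Within barcode set 1 the ratio was 0.82 and within set 2 it was 0.53, and without the cell with the most counts of the list it was 0.66. It was 0.32 with PHLDA1 left out of the sum, which left 13 high-output and 150 no-output cells. Against the cells between it was 0.31. Of the 45 genes, 35 had a count in either group and 7 had at least 50. Of these 7, 6 reached the 1.5-fold limit upward and 0 downward, against 6.41% and 5.97% of all genes compared, and their median was 0.79 against -0.03. The 28 genes with fewer counts stood at 161 against 124 counts when added, a log2 ratio of 0.79 (0.44 to 1.14).

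Among these targets, HMGA1, which encodes a chromatin-bending protein, was the most abundant, at 1194 against 689 CPM (log2 ratio 0.79, 0.45 to 1.14). Without it the list stood at 0.70. FOSL1, an AP-1 transcription factor stabilised by ERK, had 36 and 27 counts (264 against 149 CPM; 0.82, 0.06 to 1.60). CCND1, the cyclin D1 gene through which growth signals act on the cell cycle, had 33 and 24 counts (242 against 132 CPM; 0.87, 0.07 to 1.69). For both, the interval included 0 without the cell with the most counts, at 0.63 (-0.16 to 1.43) for FOSL1 and 0.71 (-0.12 to 1.55) for CCND1. FOSL1 was also at -0.04 when all cells were thinned to 1500 counts before grouping. With PHLDA1 left out of the sum (13 against 150 cells), FOSL1 was at -0.57.

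The receptor gene TNFRSF12A, which binds the cytokine TWEAK, stood at 439 against 243 CPM (0.86, 0.27 to 1.45), with 0.79 and 0.94 within the barcode sets. IER3, an immediate early gene that modulates ERK signalling, stood at 798 against 474 CPM (0.75, 0.33 to 1.18), with 0.67 and 0.87 within the sets. A count of IER3 was found in 70% of the high-output and 50% of the no-output cells, and in 46% and 47.4% after thinning. VGF, a secreted neuropeptide precursor, was at 637 against 381 CPM (0.74, 0.27 to 1.22), but at 1.13 in set 1 and -0.19 in set 2. ODC1, which makes putrescine, was nearly equal at 425 against 397 CPM (0.10, -0.43 to 0.62).

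The feedback regulators outside the 7 were too sparse to be read singly. SPRED2, an inhibitor of RAF activation related to the Sprouty genes, had 11 counts in high-output and 4 in no-output cells, and SPRED1 had 3 and 0. SPRY1 had 10 and 8 counts, DUSP5 4 and 1, DUSP7 4 and 7, and DUSP1 1 and 1. The immediate early gene EGR1 had 4 and 3 counts, and MYC had 2 and 2. PLAUR, the urokinase receptor gene, had 22 and 14 counts, and SPHK1 15 and 7. The matrix protease inhibitor gene TFPI2 ran the other way with 1 and 9 counts.

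The parts of the pathway above ERK were at like levels in both groups. The RAS, RAF, MEK and ERK genes with their adaptors had a summed log2 ratio of 0.10 (-0.07 to 0.26), with 0.22 in set 1 and -0.11 in set 2. Of the 6 members with at least 50 counts, 1 reached the limit upward and 0 downward, against 6.41% and 5.97% of all genes compared. The member that did was MAPKAPK2, a kinase of the p38 branch, at 0.74 (-0.10 to 1.60). The adaptor SHC1 stood at 872 against 794 CPM, the RAF inhibitor PEBP1 at 901 against 877 CPM, and the adaptor GRB2 at 337 against 458 CPM (-0.44, -0.99 to 0.09). NRAS had 12 counts in the high-output and 7 in the no-output cells and HRAS 13 and 19. BRAF was at 0 in both groups and MAP2K1 had 0 and 1 counts, so these kinases could not be compared at this depth.

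Receptor tyrosine kinases summed to 0.18 (-0.12 to 0.49). AXL stood at 461 against 414 CPM (0.16, -0.35 to 0.66) and FGFR1 at 234 against 165 CPM (0.50, -0.26 to 1.27), and neither reached the limit. ALK, the receptor most often altered in neuroblastoma, was at 0 in both groups, as were MET, KIT, NTRK2 and KDR. The ligands summed to 0.35 (0.07 to 0.64), a difference that rested on PTN, the pleiotrophin gene, since without it the list was at 0.18. PTN itself stood at 359 against 165 CPM (1.12, 0.43 to 1.82), but at -0.31 in barcode set 1 and 2.53 in set 2, and at 0.53 without a cell with 17 counts. Midkine (MDK) was equal at 439 and 441 CPM.

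Among the genes with the highest ratios were SERPINB2 and PLAT, which act in plasminogen activation; they are set together here after their values were seen. SERPINB2, the inhibitor PAI-2 of urokinase, had 121 counts in high-output and 29 in no-output cells. Per cell, the level ran from 0 to 4998 CPM with a median of 0 in the high-output group and from 0 to 3044 CPM with a median of 0 in the no-output group. The ranges overlapped over the whole span of the no-output cells, and the highest values were in high-output cells. At equal depth, with each cell thinned at random to 1500 counts, 42% of high-output cells (28.2% to 56.8%), 20% of the cells between and 10.5% of no-output cells (4.66% to 19.7%) had a count. With all counts these shares were 48%, 28.2% and 19.7%.

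The summed levels of SERPINB2 were 886 and 160 CPM, a log2 ratio of 2.47 (1.88 to 3.11). The ratio was 2.62 in barcode set 1 and 1.90 in set 2. A single cell held 33 of the 121 counts, and without it the ratio was 2.08 (1.46 to 2.74). The cells between stood at 252 CPM.

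PLAT, the tissue plasminogen activator, was higher as well, at 564 against 232 CPM (1.28, 0.72 to 1.86) with 1.28 and 1.08 in the sets. A cell with 22 of its 77 counts took the ratio to 0.84 (0.24 to 1.46) when left out. A count of PLAT was found in 46% of high-output and 32.9% of no-output cells, and in 38% and 22.4% at equal depth.

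**Figure D4:**
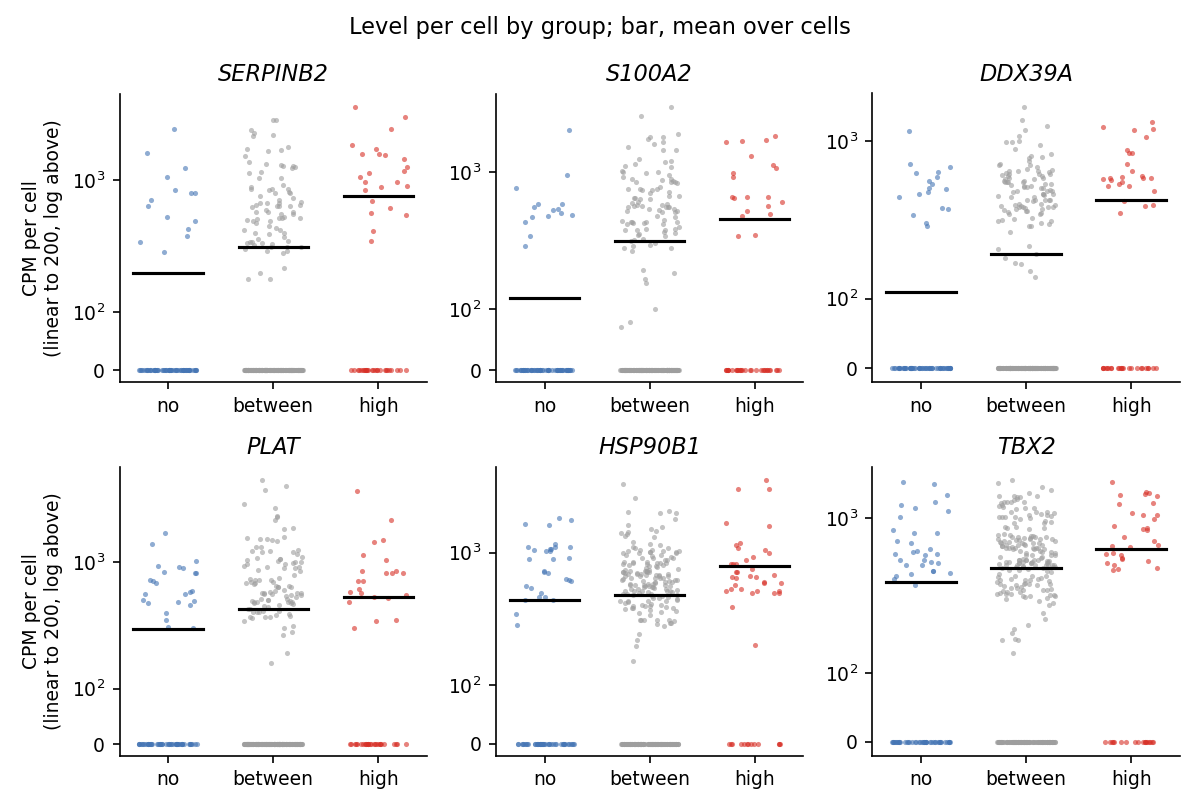
Level per cell (vertical axis, CPM, linear to 200 and log above) of 6 genes in no-output, between and high-output cells; points are cells and bars are means over cells. The ranges overlap for each gene, and the SERPINB2 bar of the high-output cells lies above those of the other groups.

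Several other genes were among the 20 named as higher, a choice that itself required the same sign in both barcode sets. S100A2, a calcium-binding protein, had 47 and 21 counts (344 against 116 CPM; 1.57, 0.80 to 2.39; 1.49 and 1.61 in the sets), with 40% and 19.7% of cells positive, or 36% and 13.2% at equal depth. It was at -0.60 when PHLDA1 was left out of the sum, which left 13 high-output and 150 no-output cells. The RNA helicase DDX39A had 45 and 21 counts (330 against 116 CPM; 1.51, 0.73 to 2.33). TBX2, a transcription factor of the adrenergic neuroblastoma core circuit, stood at 601 against 303 CPM (0.99, 0.48 to 1.51; 0.87 and 1.12 in the sets), with 64% and 42.1% of cells positive, or 50% and 28.9% at equal depth.

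The signalling and transport genes GNB2 (a G protein beta subunit), CALM2 (calmodulin) and SRP72 (a subunit of the signal recognition particle) were at 1.11 (0.41 to 1.83), 0.72 (0.24 to 1.21) and 1.24 (0.45 to 2.06). The peroxide-reducing enzyme PRDX1 was at 0.85 (0.27 to 1.44), BRI3 at 0.76 (0.26 to 1.26) and the RNA-binding protein gene ILF2 at 0.72 (0.25 to 1.18). NPY and MALAT1 rested on few cells. The neuropeptide NPY had 39 counts in 8 high-output cells and 20 in 7 no-output cells (1.37, 0.56 to 2.23). The nuclear RNA MALAT1 had 42 counts in 9 and 26 in 9 cells (1.10, 0.36 to 1.87), and was at 0.44 (-0.40 to 1.29) without a cell with 16 counts.

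Chaperones of the endoplasmic reticulum were higher in the high-output cells. The list of the unfolded protein and amino acid response summed to 5794 against 3629 CPM, a log2 ratio of 0.68 (0.52 to 0.83). Of its 4 members with at least 50 counts, 4 reached the 1.5-fold limit upward, against 6.41% of all genes compared. Their median was 0.95, against -0.03 over all genes compared. The glucose-regulated chaperones HSP90B1 (718 against 314 CPM; 1.19, 0.71 to 1.69) and HSPA5 (271 against 121 CPM; 1.16, 0.36 to 1.99) had the largest ratios. PDIA4, a disulfide isomerase, was at 0.74 (0.37 to 1.12) and calreticulin (CALR) at 0.61 (0.36 to 0.85; 2183 against 1434 CPM). Cells of barcode set 1 carried most of this difference: the list was at 1.04 in set 1 and 0.16 in set 2, PDIA4 at 1.48 and -0.15, and CALR at 0.92 and 0.08. Without the cell with the most counts of the list, which held 88, the ratio was 0.55 (0.39 to 0.70), and PDIA4 without a cell with 34 counts was at 0.37 (-0.04 to 0.77).

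AP-1 and immediate early genes summed to 0.61 (0.34 to 0.89), with 0.63 and 0.56 in the sets. Its members with at least 50 counts, IER3 and FOSL1, are also in the list of ERK targets, so these lists are not separate readings. The 17 members with fewer counts stood at 91 against 92 counts, a log2 ratio of 0.39 (-0.04 to 0.83). The mesenchymal list was at 0.18 (0.07 to 0.29), with vimentin (VIM) at 5926 against 5267 CPM. It was at 0.28 in set 1 and 0.05 in set 2, and at 0.10 (-0.01 to 0.22) without the cell with the most counts of the list. The adrenergic list was at 0.10 (-0.15 to 0.35). Within the adrenergic list TBX2 was higher and HAND2 was at -0.67 (-1.42 to 0.04; 183 against 292 CPM). Without TBX2 the list was at -0.20. YAP targets were at 0.15 (-0.12 to 0.41) and the actin cytoskeleton at 0.01 (-0.04 to 0.06).

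Genes of DNA replication were lower in the high-output cells. The G1/S list summed to 3611 against 4847 CPM, a log2 ratio of -0.42 (-0.59 to -0.26). Of its 12 members with at least 50 counts, 5 reached the limit downward and 1, CCND1, upward. Of all genes compared, 5.97% reached it downward and 6.41% upward. MCM2, a subunit of the replicative helicase, had 11 counts in the high-output and 46 in the no-output cells (80.6 against 254 CPM; -1.65, -2.75 to -0.68; -1.64 and -1.5 in the sets). A count of MCM2 was found in 20% and 42.1% of cells, and in 14% and 31.6% at equal depth. The helicase subunits MCM3 (-0.70, -1.57 to 0.12) and MCM6 (-0.71, -1.60 to 0.13) and the nucleotide enzymes TYMS (-0.63) and DUT (-0.59) also passed the limit. The list was at -0.68 in set 1 and -0.05 in set 2.

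Histone genes followed the same division by set. They summed to -0.33 (-0.45 to -0.21), with -0.58 in set 1 and 0.05 in set 2, and the replication-dependent HIST1H4C stood at 2424 against 3700 CPM (-0.61, -0.80 to -0.42). Without HIST1H4C the list was at -0.15. Genes of G2/M and mitosis were at 0.02 (-0.11 to 0.14). In cells split at the median share of G2/M counts, the ERK targets list was at 0.72 below it and 0.70 at or above it.

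COL1A1, the fibrillar collagen chain, was lower, with 14 counts in 8 high-output cells and 54 in 23 no-output cells (103 against 298 CPM; -1.54, -2.50 to -0.67). The cells between stood at 322 CPM, above both, and with a limit of 0.1% in place of 0.15% the ratio was 0.21. Its chaperone SERPINH1 was at -0.72 (-1.16 to -0.29; 483 against 794 CPM) and the matrix glycoprotein SPARC at -0.53 (-0.79 to -0.27; 1399 against 2018 CPM). The matrix list as a whole was at -0.07 (-0.18 to 0.04), with 0.20 in set 1 and -0.60 in set 2, and its integrin gene ITGA3 was at 1.51 in set 1 and -0.91 in set 2.

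The row that joins INS-IGF2 and INS, a readthrough of the insulin and insulin-like growth factor genes, had 56 counts in 13 high-output cells and 201 in 15 no-output cells (410 against 1108 CPM; -1.43, -1.89 to -1.0). The positive share was 26% and 19.7%, and 18% and 17.1% at equal depth. One no-output cell held 45 counts, and without it the ratio was -1.09 (-1.55 to -0.64). The peptide and chromaffin list was at -0.55 (-0.79 to -0.32), and at -0.09 without this row. With PHLDA1 left out of the sum, the list was at 0.09, from 13 high-output and 150 no-output cells.

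Among the other genes named as lower, the retinoic acid carrier CRABP2 stood at 381 against 800 CPM (-1.07, -1.56 to -0.60) and the actin-binding calponin CNN2 at 110 against 248 CPM (-1.18, -2.13 to -0.31). A count of CNN2 was found in 22% of high-output and 36.8% of no-output cells, and in 4% and 25% at equal depth. TRAPPC1, a subunit of a vesicle tethering complex, was at -1.33 (-2.27 to -0.47), RABAC1 at -1.21 (-2.24 to -0.28) and TMEM167A at -1.14 (-2.17 to -0.20). The methyltransferase gene FTSJ2 was at -1.23 (-2.15 to -0.40), the splicing factor U2AF1 at -0.96 (-1.70 to -0.26) and the HSP90 co-chaperone AHSA1 at -0.86 (-1.56 to -0.19). The ribosomal genes RPL23 (-0.38, -0.54 to -0.22) and GNB2L1, which encodes RACK1 (-0.37, -0.52 to -0.21) were lower with narrow intervals, beside a ribosomal protein sum at -0.13.

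Of the remaining lists, ribosome biogenesis was at -0.09, cholesterol and fatty acid synthesis at 0.10 and glycolysis at 0.02. The respiratory chain was at -0.08 (-0.15 to -0.02), the heat shock and chaperone list at -0.03 and p53 targets at 0.09. The interferon list was at -0.08 (-0.24 to 0.07), from 0.16 in set 1 and -0.46 in set 2. The BMP and TGF-beta list was at 0.08 (-0.11 to 0.27). Of its 5 members with at least 50 counts, 4 were below 0, and the median was -0.37. Of the 1155 genes compared, 622 were below 0, and the median was -0.03. The list was at 0.28 without ID3, an inhibitor of basic helix-loop-helix factors. It was at -0.22 (-0.43 to -0.01) without the member that shifted the sum most. Of the markers of other cell types, 10 of 10 endothelial genes were at 0 in both groups, as were 11 of 13 immune genes. The immune list had 14 counts in the high-output and 9 in the no-output cells, a log2 ratio of 1.05 (-0.26 to 2.44). Of the immune genes, PTPRC had 8 counts in the high-output and 1 in the no-output cells and CD68 had 6 and 8, while TYROBP was at 0. The Schwann cell precursor list summed to 264 against 215 CPM (0.29, -0.40 to 0.99), with 10 of its 15 members, SOX10 among them, at 0 in both groups. The epithelial list summed to 403 against 436 CPM (-0.11, -0.64 to 0.40), most of it the keratin KRT18 at 300.3 against 364 CPM, with 6 of its 11 members at 0 in both. Also at 0 in both groups were the endothelial PECAM1, CDH5 and VWF.

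The cells between belonged to neither group of the main comparison, and a split among them allowed the differences to be read in other cells. They were split at the median share of the 7 genes, without the deepest cell, into 152 cells with 487 counts of these genes and 152 cells with 212. These groups held 490642 and 474021 counts. The share of the 7 genes ran from 0.0680% to 0.150% in the upper and from 0.0158% to 0.0679% in the lower group. The contrast in these genes was thus smaller than in the main comparison. This split was chosen after the first comparison had been seen. Over the 3327 genes with at least 50 counts in both together, 50.1% of the ratios were above 0 and 49.9% below.

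The ERK targets list was again higher in the cells with the larger share, at 0.28 (0.19 to 0.37), and at 0.27 without HMGA1. VGF was at 0.80 (0.54 to 1.07), CCND1 at 0.91 (0.44 to 1.40), IER3 at 0.37 and HMGA1 at 0.30. TNFRSF12A was at 0.11, ODC1 at 0.00 and FOSL1 at -0.07. The mesenchymal list stood at 0.22 (0.16 to 0.29), and the histone list at -0.18 (-0.25 to -0.11). The epithelial list had the largest difference, at -0.49 (-0.79 to -0.20). Intervals also excluded 0 for the matrix (-0.15), BMP and TGF-beta (-0.14), G2/M (-0.11) and respiratory chain (-0.07) lists. The RAS, RAF, MEK and ERK list was at 0.10 (0.01 to 0.20).

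For single genes the second set of cells gave smaller or opposite ratios in most cases. Of the 20 named as higher, 12 had the same sign, 3 with an interval above 0, and 2 had an interval below 0. Their median was 0.06. Over all 3327 genes of this split, 50.1% of the ratios were above 0 and 49.9% below. How many of all these genes had an interval that excluded 0 was not counted. S100A2 was at 1.18 (0.77 to 1.62) and SERPINB2 at 0.25 (-0.14 to 0.63), while MALAT1 was at -0.43. Of the 15 named as lower, 10 had the same sign, 3 with an interval below 0 (the INS-IGF2 row at -0.48, CNN2 at -0.57 and SPARC at -0.41), and AHSA1 was at 0.42. MCM2 was at 0.13 and COL1A1 at 0.23. The unfolded protein list was at 0.02 (-0.07 to 0.11) and the G1/S list at -0.07 (-0.16 to 0.01), and the interferon list was at -0.25 (-0.34 to -0.16).

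**Figure D5:**
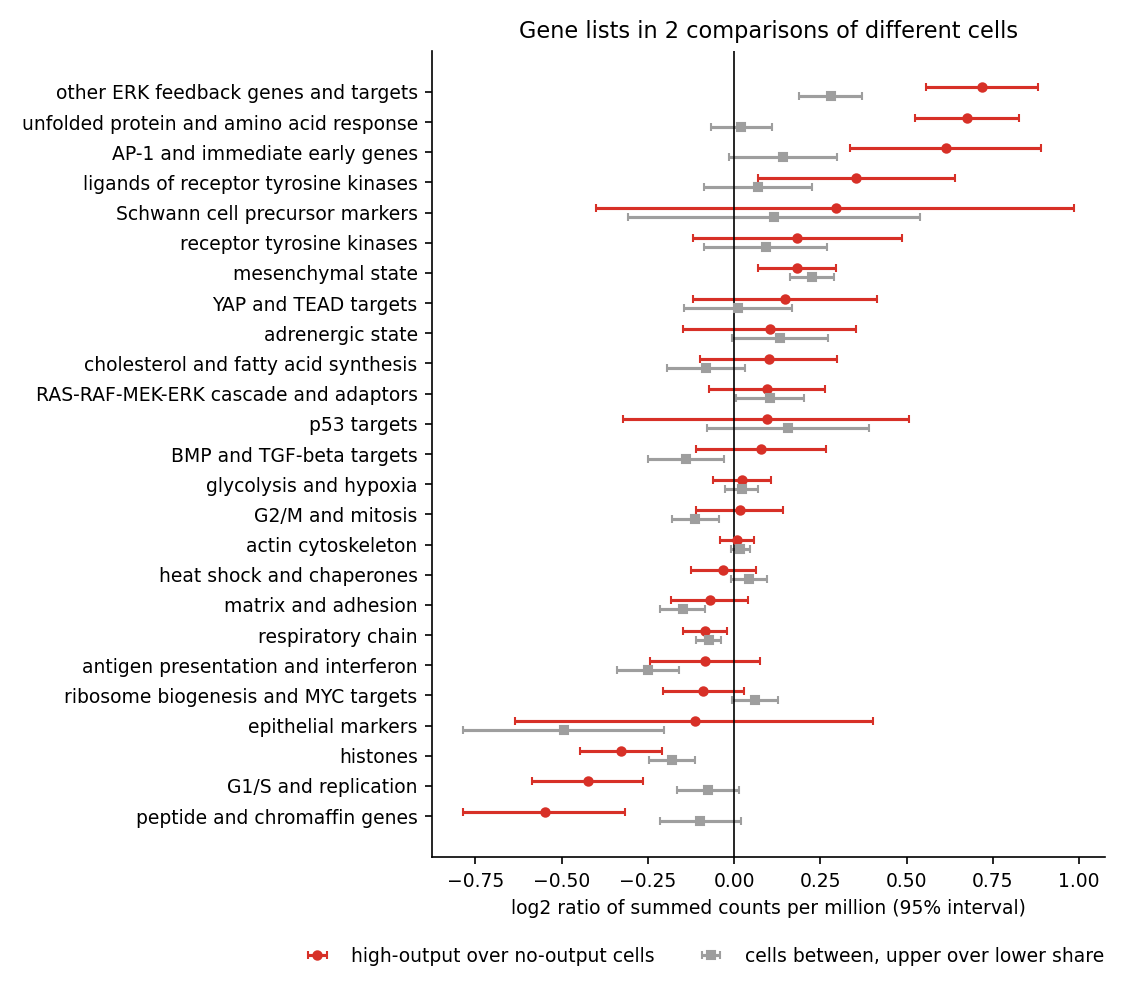
Log2 ratio of summed CPM (horizontal axis) of 25 gene lists between high-output and no-output cells (circles) and within the cells between, larger against smaller share (squares), with exact 95% intervals for counting error. The ERK targets list lies above 0 in both comparisons, at 0.72 and 0.28, and the unfolded protein list at 0.68 and 0.02.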

How the data were processed

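RNA of single SK-N-AS cells was measured by MARS-seq. The deposited table holds raw counts, as whole numbers for each gene in each cell. Per the submitters' processing notes, Bowtie2 2.1.0 and the build hg19 were used. How counts were made, which annotation served, how cells were filtered and whether 1 count is a molecule or a read: not given in the sources used here. Columns, 603 in all, carry barcodes and no sample name, so the 16 labelled samples could not be told apart and were treated as 1 sample. The 2 counts (0.00013%) of a row without a gene name were excluded.

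Counts were summed over each group and given as CPM of the group's total, with exact Poisson intervals. Log2 ratios carry exact conditional binomial intervals and shares of cells Clopper-Pearson intervals, all at 95%. Shares at equal depth rest on 1 random thinning to 1500 counts per cell. Rows that join several genes are given by the first symbol. Genes were compared with at least 50 counts over both groups. The rule for named genes takes the 20 with the highest lower bound and the 15 with the lowest upper bound among genes of the same sign in both barcode sets, and of each list the 4 members farthest from 0; pathway lists may be named in full. A few genes are not reported here; totals over named genes and lists still hold them. Of 763 entries in the gene lists, 761 were matched to rows. The cells and lists were chosen with earlier results of these data known. No doublet caller was run, since cells were sorted singly. Python 3.11.15, numpy 2.4.6, pandas 2.3.3, scipy 1.17.1 and matplotlib 3.10.9 were used. The ratio step was tested on simulated counts drawn independently for each cell, with the same level of a gene in all cells of a group. That simulation does not cover genes whose counts gather in few cells. The 19 alternative settings changed the minimum total, cutoff, depth, barcode set, rule genes, reference cells, scaling, cell weights, cell cycle stage and count filter; leaving out the leading cell of a gene or list and splitting the cells between were added after seeing the data.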

Additional observations from a re-analysis of the deposited data

How the results depend on the processing

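The summed log2 ratio of the ERK targets list was above 0 under every alternative run. It left the main interval at 0.52 with a minimum total of 1000, 0.89 with a cutoff of 0.002, 0.49 after thinning, 0.55 in cells with totals from 1500 to 3000, 0.53 in barcode set 2, 0.32 with PHLDA1 left out of the sum, 0.31 against the cells between and 0.28 in the split of the cells between. Counts of genes past 1.5-fold, 74 higher and 69 lower, moved with the number of cells and the filter, and the genes compared also changed. The higher and lower counts were 159 and 104 with a cutoff of 0.001 (8.01% and 5.24% of the genes then compared), 42 and 42 in set 1 (6.40% and 6.40%), 15 and 32 in set 2 (3.62% and 7.73%), 195 and 320 without PHLDA1 (12.6% and 20.7%) and 293 and 472 against the cells between (7.71% and 12.4%). They were 40 and 37 below (7.39% and 6.84%) and 29 and 32 at or above (5.44% and 6.0%) the median G2/M share. With at least 20 counts they were 390 and 343 (13.3% and 11.7%), with at least 100 they were 24 and 8 (4.56% and 1.52%), and with no filter 3127 and 3545 (28.2% and 31.9%). The higher count was 33 (4.53%) for totals from 1500 to 3000, and the lower count was 44 (5.28%) with a minimum of 2000 and 105 (9.72%) after thinning.

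Among the lists whose interval excluded 0 and the printed genes past 1.5-fold, signs turned in these cases, and the cause was not tested. Values nearer 0 also changed sign between settings and are not listed. COL1A1 was at 0.21 with a cutoff of 0.001. After thinning, MALAT1 was at -0.61, FOSL1 at -0.036, TLN1 at -0.0097 and TEAD1 at -0.39. In set 1 PTN was at -0.31; in set 2 the histone list was at 0.049, MSMO1 at -0.42, ITGA3 at -0.91, PDIA4 at -0.15, VGF at -0.19 and HIST1H4C at 0.011. Leaving out PHLDA1 gave 13 high-output and 150 no-output cells. The peptide list was then at 0.094, S100A2 at -0.60, MSMO1 at -0.11 and FOSL1 at -0.57. In the same setting MAPKAPK2 was at -0.0086, CALM2 at -0.088, MYH9 at -0.062 and HAND2 at 0.16. MALAT1 was at -0.14 against the cells between and at -0.68 below the median G2/M share; at or above it the mesenchymal list was at -0.070, MSMO1 at -0.49, MYH9 at -0.12 and NOP16 at 0.00090. In the split of the cells between, HSP90B1 was at -0.21, TBX2 at -0.12, SRP72 at -0.28, MALAT1 at -0.43, HSPA5 at -0.11, PRDX1 at -0.31, BRI3 at -0.0028, MCM2 at 0.13, COL1A1 at 0.23, FTSJ2 at 0.10 and AHSA1 at 0.42. No paired analysis was possible because the columns carry no replicate number and all cells form 1 sample. With a median of 5 counts of the 7 genes in a high-output cell, depth limits how well a cell can be placed.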
